A study of Saccharomyces cerevisiae with 30 samples.

Results

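The arrays described here compared an evolved tetraploid budding yeast clone with a diploid, both grown at 36°C. They are the 3 arrays labelled as evolved 4 over diploid, out of 30 arrays in the series, and they were chosen by their titles alone. Each array carried RNA of the evolved clone in one Alexa Fluor dye and RNA of the diploid in another, and each value is the log2 of the first over the second. A value of 1 is therefore a 2-fold higher signal in the evolved tetraploid, and a value of −1 a 2-fold lower one.

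All cultures were Saccharomyces cerevisiae of the W303 background, a laboratory strain. In the strains of the study SPO11, a gene needed for meiotic recombination, was deleted, and the strains carried markers in ADE2, URA3, HIS3, LEU2, TRP1 and CAN1. The ancestral tetraploid of line 4 had an a/a/α/α mating type and was made by mating diploids. The evolved clone came from its culture after about 1000 generations in rich medium at 23°C with daily dilution, and was the colony with the highest fitness among those isolated. The same ancestral tetraploid was compared with the diploid on 3 further arrays, and the evolved clone with its ancestor on 3 more. The label of the second culture says only diploid cells of the W303 background. The evolved tetraploid was 1 clone of 1 line, and the labels call the 3 arrays technical replicates. Every p-value below therefore measures the spread between hybridisations and not between cultures or lines. No array had the dyes swapped.

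A tetraploid carries each gene of a diploid in more copies, and its cells are larger, so surface, cell wall and biosynthetic genes are those in which ploidy effects on transcript levels are commonly looked for. In yeast, genes for ribosomal proteins and ribosome assembly are transcribed together in proportion to growth rate, through the TOR and protein kinase A pathways. Genes for heat shock proteins, trehalose and glycogen metabolism and oxidant defence are driven by Hsf1 and by Msn2 and Msn4, and usually move in the other direction.

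The gene names listed beside the values could not be used as they stood, since rows listed as ribosomal proteins did not vary together. Names were given to 313 of 6377 rows through a published key of gene names for the direct comparison of the evolved clone with its ancestor, and none of these 313 rows carried that name in the listing. The names were then tested on the 27 arrays that the key had not used. The named ribosomal protein rows had a mean pairwise correlation of 0.728 over 61 complete rows, against −0.0121 for the rows listed under the same names and 0.00206 over all 5704 complete rows. In the same test 19 ribosome biogenesis rows reached 0.785 and 15 stress and reserve carbohydrate rows 0.669. Chaperones, with 13 rows, reached 0.515. All 13 pairs of ribosomal A and B copies correlated above 0, with a median of 0.928. The 27 arrays included the 3 of evolved 4 over diploid and the 3 of ancestral 4 over diploid. These carried the same clones as the arrays behind the key. Rows with similar ratios in the key could therefore vary together even under wrong names. The rows compared with were not matched for that ratio, so these correlations are not fully independent support for the names. The other 6064 rows are given by their number in the deposited order. Of the named rows, 233 came from a list that the study had chosen for change in the direct arrays of line 4, so a direction of change among them is not independent evidence. The other 80 came from a list of rapamycin-responsive genes.

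The first question was how far the evolved tetraploid still lay from the diploid. Few rows differed by 2-fold. Of 6225 rows tested, 80 were called, which is 1.29%, at a Benjamini-Hochberg adjusted p under 0.05 in limma with a mean at or beyond 1 or −1. The higher rows numbered 48 (0.771%) and the lower rows 32 (0.514%). All 80 had the same sign on every array with a value. Differences below 2-fold were common, with 26.9% of rows higher and 24.7% lower past the adjusted p alone.

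On single arrays the evolved clone had 1.77%, 1.81% and 1.48% of its values at least 2-fold away from the diploid. The ancestral tetraploid had 3.57%, 4.86% and 5.02%, so the groups did not overlap. The means were 1.69% ± 0.18 (SD, n = 3) and 4.48% ± 0.798 (SD, n = 3), and the exact two-sided permutation test gave p = 0.1, the smallest value that 3 arrays against 3 allow. Quantile normalization, which gives all arrays one distribution, removed this difference by its construction. A share of single values beyond a limit also rises with noise. The median SD of a row over 3 arrays was 0.129 in the ancestral comparison and 0.106 in the evolved one. How much of the difference in shares came from this was not tested. In the ancestral comparison 209 of 6145 rows were called, or 3.4%. Of these, 186 were no longer called in the evolved clone, and for 162 of the 186 the difference between the comparisons passed the adjusted p in the direction of 0. Over all 6135 rows that difference passed the adjusted p alone in 31.9% on the higher side and 25.3% on the lower side. It was also at least 2-fold in 6.94%. The 186 rows had been chosen as far from 0 in the ancestor only, so a move toward 0 was partly given by the choice.

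**Figure D1:**
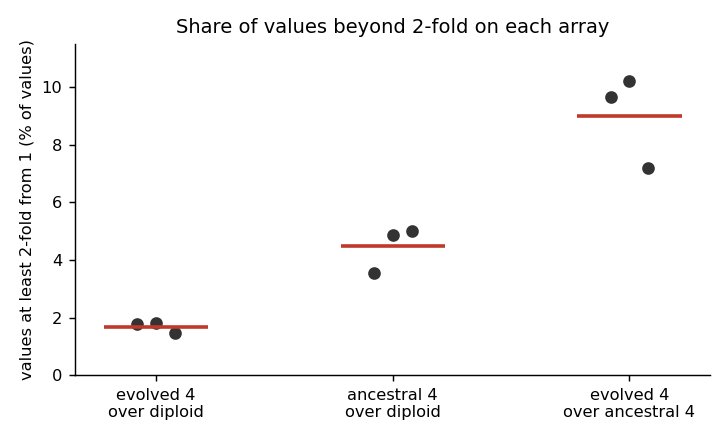
Share of the values on each array that lay at least 2-fold from equal signal, in percent, for the 3 groups of line 4. Points are single arrays and red lines are means of 3. The evolved 4 over diploid arrays sit between 1.48% and 1.81%, below all arrays of ancestral 4 over diploid.

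The second question was which of the remaining differences were there before evolution and which were new. Both comparisons used the same diploid, so their values are set side by side without a correlation between them. A called row was counted as retained when it was also called the same way in the ancestor. It was counted as new when it was not called in the ancestor and the difference of the comparisons passed the adjusted p with the same sign. Of the 80 called rows, 22 were retained, or 27.5%, with 15 higher and 7 lower. The new rows numbered 47, or 58.8%, with 28 higher and 19 lower. In 1 row the evolved clone was called higher and the ancestor lower. The other 10 were undecided, 5 of them because the ancestor had too few values.

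New here meant newly past 2-fold. Of the 47 new rows, 31 already differed from the diploid in the same direction in the ancestor past the adjusted p, though not by 2-fold. Among the rest, 12 did not pass in the ancestor and 4 passed there in the opposite direction. DDR2, PHM7 and FUR1 were among these 4. The 5 named rows without a passing difference in the ancestor were AAH1, FIT2, GPH1, HSP12 and RPL7A.

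**Figure D2:**
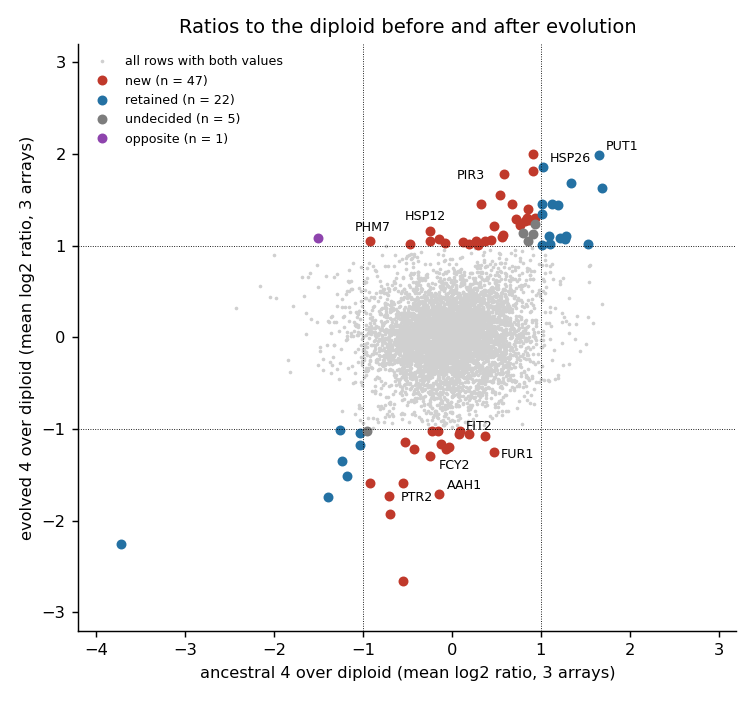
Mean log2 ratio to the diploid of every row with both values, in the ancestral tetraploid (horizontal) and in the evolved tetraploid (vertical), each over 3 arrays, or 2 where a value was missing. Dotted lines mark 2-fold, and the colours mark the 47 new, 22 retained and 5 undecided rows with ancestral values and the 1 row called in opposite directions.

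Among retained differences the highest named row was PUT1, which encodes proline oxidase, the first enzyme of proline use in mitochondria. Its log2 ratios were 1.79, 1.94 and 2.23 in the evolved clone and 1.73, 1.44 and 1.79 in the ancestor. All 6 values were high, and the groups did not overlap, though the lowest evolved value lay only just above the highest ancestral one. The mean was 1.99 ± 0.22 (SD, n = 3), with an adjusted p of 3.04e-17 in limma, against 1.65 ± 0.19 (SD, n = 3). The increase of 0.34 between them had an adjusted p of 0.00441. With the dye-balanced contrast described below the value was 1.94.

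HSP26, a small heat shock protein that holds unfolded proteins, had log2 ratios of 1.83, 2.02 and 1.73 in the evolved clone. In the ancestor they were 1.34, 0.53 and 1.20, all above 0 and all below the evolved values. The mean rose from 1.02 to 1.86, and this difference of 0.83 had an adjusted p of 0.000866 in limma. With the dyes balanced the mean was 0.83 with an adjusted p of 0.0838, so the call was lost.

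The other retained rows at the extremes could not be named. Row 4132 had log2 ratios of 1.84, 1.60 and 1.61 in the evolved clone and a mean of 1.34 in the ancestor. Row 2783 had 1.58, 1.63 and 1.69, with an ancestral mean of 1.68. On the lower side row 986 had −1.77, −1.70 and −1.77, with an ancestral mean of −1.40, and row 5952 had −1.62, −1.42 and −1.50, with an ancestral mean of −1.18. These 4 rows were tight over arrays and lay on the same side of 0 on all 6 arrays.

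Rows 4605 and 1019 were retained by the rule but were less settled. Row 4605 had −2.23, −1.97 and −2.56 in the evolved clone and −4.00, −3.54 and −3.62 in the ancestor, yet its dye-balanced value was 2.51. It was the only called row that the dye-balanced contrast called in the other direction. Row 1019 had −0.47, −2.81 and −0.75, so a single array set its mean of −1.34. The ancestor had 2 values, −2.42 and −0.04, and without array 2 of the evolved clone the mean was −0.61 and the call was lost.

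Some further genes lay below 2-fold in both comparisons with the diploid. EFT1 and EFT2, near-identical copies for translation elongation factor 2 whose signals are uncertain as separate genes, had means of −0.80 and −0.83 in the evolved clone and −0.70 and −0.68 in the ancestor. The differences of −0.10 and −0.16 had adjusted p values of 0.464 and 0.34 in limma. On the direct arrays, however, EFT1 and EFT2 were lower than in the ancestor, at −0.70 and −0.76 with adjusted p values of 1.71e-08 and 1.99e-07, and their dye-balanced values against the diploid were −0.20 and −0.23. YHB1, the flavohaemoglobin that detoxifies nitric oxide, had a mean of −0.92 against −0.77, and a direct ratio of −0.40.

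The new differences on the lower side were led by unnamed rows and by genes for uptake and salvage. Row 3334 was the lowest of all called rows, with −3.04, −2.91 and −2.02 in the evolved clone and −0.45, −0.58 and −0.63 in the ancestor. Row 1632 had −1.86, −2.56 and −1.35, with an ancestral mean of −0.70, but its dye-balanced value was only −0.24. The groups did not overlap in either row. Row 3551, undecided, had values on 2 arrays only, −0.37 and −3.18, and these lay far apart.

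PTR2, the transporter of di- and tripeptides, had log2 ratios of −1.74, −1.96 and −1.48 in the evolved clone. The ancestor had −0.83, −0.46 and −0.82, so it was already lower than the diploid on every array. The evolved mean of −1.73 ± 0.24 (SD, n = 3) was a 3.31-fold lower signal, and the difference from the ancestor of −1.03 had an adjusted p of 0.000205 in limma.

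AAH1, adenine deaminase of purine salvage, was near the diploid in the ancestor, with −0.48, 0.44 and −0.38. In the evolved clone it had −1.71, −1.76 and −1.67, a tight fall to a 3.27-fold lower signal. The difference of −1.57 had an adjusted p of 1.65e-08 in limma. FCY2, the purine and cytosine permease, went from an ancestral mean of −0.25 to −1.27, −1.39 and −1.23.

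FUR1, uracil phosphoribosyltransferase of pyrimidine salvage, had 0.28, 0.74 and 0.40 in the ancestor and −1.30, −1.42 and −1.04 in the evolved clone. It therefore changed sides, with a difference of −1.73 (adjusted p = 2.39e-10 in limma). The named rows held 10 genes of purine and pyrimidine salvage or synthesis, a group put together after their values were seen. All 10 were lower than the diploid past the adjusted p, with a median of −0.87, beside 24.7% of all rows and a median of 0.016. On the direct arrays, on which most named rows had been chosen, 9 of the 10 were called lower. Low values of the group against the diploid were therefore partly given by the choice. The ancestral median of the group was −0.10. The weakest member was HPT1, hypoxanthine-guanine phosphoribosyltransferase, at −0.28 against 0.65 in the ancestor. The dye-balanced median was −0.37, with 4 of the 10 lower past the adjusted p, beside 9.39% of all rows in that contrast.

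TAT1, an amino acid permease, lay just inside the 2-fold limit with a mean of −1.02, and FIT2, a cell wall mannoprotein that helps retain siderophore iron, had −1.24, −1.05 and −0.87. The ancestral means were −0.16 and 0.08. FIT2 kept its call with the dyes balanced, at −1.47, while TAT1 fell to −0.39. Row 2470, at −1.01, was the other row just inside the limit on the lower side. Just outside it were row 4083 at −0.99 and VAS1, valyl-tRNA synthetase, also at −0.99.

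**Figure D3:**
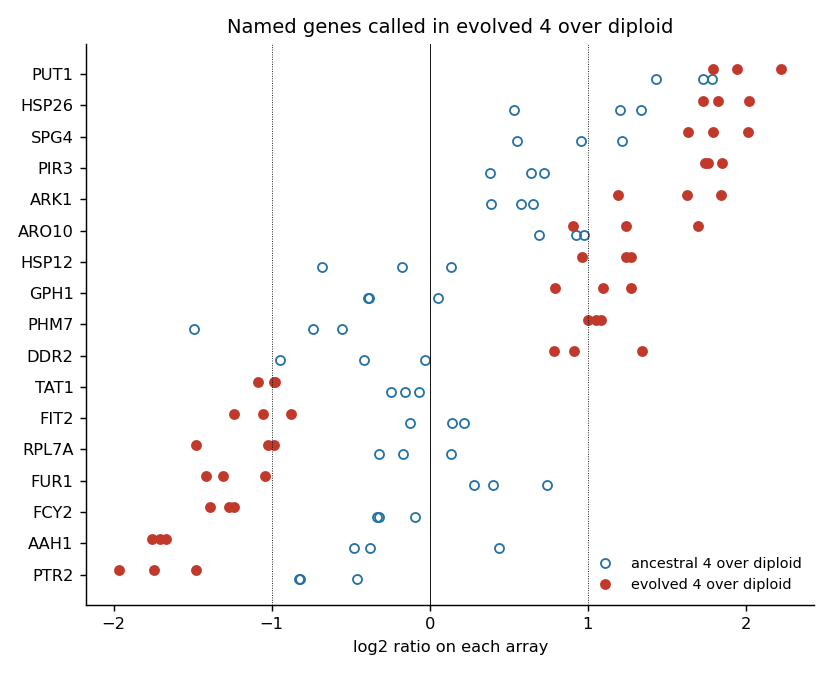
Log2 ratio on every array for 17 named genes called in evolved 4 over diploid, in the evolved clone (filled) and in the ancestral tetraploid (open). Dotted lines mark 2-fold. ARO10 is the gene shown whose groups overlap, and PHM7 and FUR1 lie on opposite sides of 0.

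Ribosomal protein genes were lower in the evolved tetraploid than in the diploid without exception among those named. The 63 named rows had a median log2 ratio of −0.65, with a range from −1.16 to −0.33, and all 63 were lower past the adjusted p, against 24.7% of all rows. The medians on the 3 arrays were −0.70, −0.68 and −0.61, and all 63 rows were below 0 on each array. Of the 63, 2 passed 2-fold, so most of this difference lay under the limit used for calls. The list chosen on the direct arrays, which carried the same evolved clone, gave 56 of the 63. Low values against the diploid were therefore also partly given by the choice.

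The ancestor stood on the other side. Its median over the same rows was 0.45, with 48 rows higher and 4 lower past the adjusted p, beside 29.7% and 35.7% of all rows. The array medians were 0.32, 0.66 and 0.36. In all 63 rows every evolved value lay below every ancestral one, as it did in 27.3% of rows with 6 values. The median of the difference was −1.07, and all 63 passed the adjusted p on the lower side, against 25.3% of all rows. Since 56 of the 63 came from the list chosen on the direct arrays, the direction of this change was partly given by the choice. The 7 from the rapamycin list alone had medians of −0.75 in the evolved clone and −0.01 in the ancestor. All 7 were lower than the diploid past the adjusted p in the evolved clone, beside 24.7% of all rows.

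RPL7A, a large subunit protein with a near-identical copy, had −0.98, −1.48 and −1.02, with an ancestral mean of −0.12. RPL39, a very small protein of the peptide exit tunnel, moved from 1.06, 1.21 and 1.30 to −0.39, −0.42 and −0.50 and was the only ribosomal protein called in the ancestor.

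Large and small subunit genes did not stand apart, with medians of −0.63 over 29 rows and −0.68 over 33 rows. The weakest member was RPL42A at −0.33. RPL22A had the smallest spread of the 63, with −0.89, −0.88 and −0.87, against an ancestral mean of 0.45. In the 7 other lines, compared each with its own ancestor, the median over the 63 rows ranged from −0.27 in line 5 to 0.10 in line 1, while the medians of all rows lay between −0.01 and 0.01. With the sign of line 1 turned, for the reason given below, its median was −0.10 and the highest was 0.07 in line 8.

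Genes for ribosome assembly were also lower. All 19 named members of a list of ribosome biogenesis factors were lower past the adjusted p, beside 24.7% of all rows, with a median of −0.60. The ancestral median was 0.05, with 8 members higher, 2 lower and 9 not past the test, beside 29.7% higher and 35.7% lower over all rows. The difference from the ancestor passed on the lower side in all 19, beside 25.3% of all rows, and in 15 without ancestral array 2. Most named rows came from the list chosen on the direct arrays, where 18 of these 19 were called lower. The direction of this change was therefore partly given by the choice, and so were low values of the evolved clone against the diploid. RPA49, a subunit of RNA polymerase I, ranged from −1.13 to −0.63, against an ancestral mean of 0.37. RPA190, the largest subunit of the same enzyme, had −0.92, −1.01 and −0.74, with −0.35 in the ancestor. The smallest difference was that of NOP4, a nucleolar factor for the large subunit, at −0.26. Unlike the ribosomal proteins, this list lay near the diploid with the dyes balanced, as given below. HTB1, histone H2B and the only named histone gene, had −0.53, −0.39 and −0.71, against 0.81 in the ancestor.

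**Figure D4:**
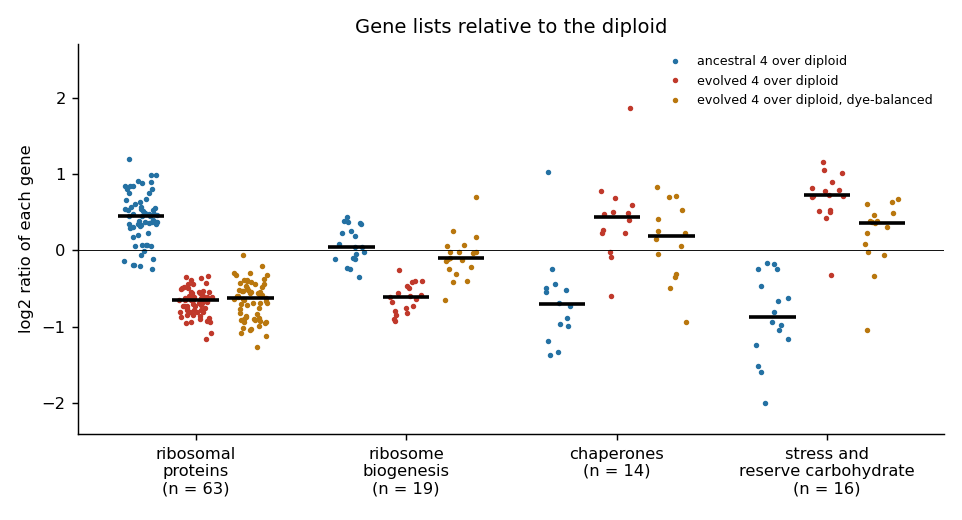
Log2 ratio to the diploid of each named gene in 4 gene lists, for the ancestral tetraploid, the evolved tetraploid and the evolved tetraploid with the dyes balanced. Black bars are medians. The evolved medians are −0.65, −0.60, 0.44 and 0.72 from left to right, and the dye-balanced ones −0.62, −0.10, 0.19 and 0.36.

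On the higher side, genes of stress defence and reserve carbohydrates lay above the diploid in the evolved clone and below it in the ancestor. Of 16 named members of the list, 15 were higher past the adjusted p, beside 26.9% of all rows, with a median of 0.72. In the ancestor 12 were lower and none was higher, beside 35.7% lower and 29.7% higher over all rows, and the median was −0.86. In 15 of the 16 rows every evolved value lay above every ancestral one, as in 34.7% of all rows, and the difference passed on the higher side in the same number, beside 31.9%. Its median was 1.49. The exception was YGP1, a secreted glycoprotein, at −0.32 in the evolved clone and −0.16 in the ancestor. Of the 16 genes, 14 came from the list chosen on the direct arrays. The direction of the change, and high values of the evolved clone against the diploid, were therefore partly given by the choice. With the dyes balanced the median was 0.36, and 4 of the 16 lay below 0. In that contrast 1 was higher and 1 lower past the adjusted p, beside 12.7% and 9.39% of all rows. The lower one was also beyond 2-fold.

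One ancestral array weighed on these values. The median over the 16 genes was −0.59 and −0.62 on ancestral arrays 1 and 3 but −1.35 on array 2. Without array 2 the median of the difference was 1.28 and the same 15 calls of the difference were made.

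HSP12, a small membrane-binding stress protein, had log2 ratios of 1.27, 1.24 and 0.96 in the evolved clone and −0.17, −0.68 and 0.13 in the ancestor. The difference of 1.40 had an adjusted p of 7.62e-08 in limma. GPH1, glycogen phosphorylase, had a mean of 1.05 and a range from 0.79 to 1.27, with an ancestral mean of −0.24. DDR2, a small stress-induced protein, had 0.91, 1.34 and 0.79, with an ancestral mean of −0.47. All 3 were near or below the diploid before evolution, and with the dyes balanced none passed the adjusted p.

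The widest turn among named genes was that of CTT1, the cytosolic catalase. It had −1.65, −2.80 and −1.55 in the ancestor and 0.91, 1.02 and 0.76 in the evolved clone, a difference of 2.90 ± 0.22 (SE) with an adjusted p of 2.03e-10 in limma. ALD3, an aldehyde dehydrogenase, went from a mean of −1.52 to 0.79. Neither passed 2-fold against the diploid in the evolved clone. GLK1, glucokinase, a gene outside the list that came from the rapamycin list, went from −1.66 to 0.46.

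Chaperones followed with smaller values. Of 14 named members, 9 were higher and 1 lower past the adjusted p, with a median of 0.44, beside 26.9% higher and 24.7% lower over all rows. In the ancestor 13 were lower and 1 higher, with a median of −0.70, beside 35.7% lower and 29.7% higher. The medians on the ancestral arrays were −0.529, −1.045 and −0.546, so array 2 weighed on this value too. On the direct arrays, on which most named rows had been chosen, 13 of the 14 were called higher and 1 was lower past the adjusted p. The direction of the change from the ancestor was therefore partly given by the choice, and so were high values of the evolved clone against the diploid. HSP104, the disaggregase, had 0.79, 0.89 and 0.68 against an ancestral mean of −0.88. The lower member was SSB2, a chaperone bound to ribosomes, at −0.59. The J-protein SIS1 was at −0.08 and the Hsp70 SSA4 at 0.23, neither past the test against the diploid, although both had been more than 2-fold lower in the ancestor, at −1.33 and −1.36.

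Sodium pump genes showed the same turn. ENA1 and ENA2, near-identical neighbours for the plasma membrane sodium ATPase, had means of 0.75 and 0.73 in the evolved clone and −0.95 and −0.87 in the ancestor. PHM7, a membrane protein of the phosphate regulon, had 1.00, 1.08 and 1.05 against −0.55, −1.49 and −0.74, a difference of 1.97 with an adjusted p of 2.39e-09 in limma. Row 5794, unnamed, was the only one called in both directions, with 1.07, 1.21 and 0.99 after evolution and −1.52, −1.70 and −1.31 before.

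Other new rows on the higher side started above the diploid. PIR3, an O-mannosylated cell wall protein, had 1.76, 1.85 and 1.74, with an ancestral mean of 0.58. Its relatives PIR1 and HSP150 had 0.55 and 0.59, each past the adjusted p, against −0.11 and −0.38 in the ancestor. ARK1, an actin-regulating kinase, had 1.84, 1.19 and 1.63, and SPG4, a gene needed at high temperature in stationary phase, had 1.80, 2.01 and 1.64. Their ancestral means were 0.54 and 0.91.

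PIR3 and ARK1 also ranged widely over the 7 other lines, from −2.19 and −1.97 in line 1 to 2.31 and 2.16 in line 3. Lines 1 and 3 ran against each other over all rows, with a correlation of −0.70, and the direction of line 1 rests on its labels. Whether line 1 was labelled the wrong way round was not tested, so its values are given both ways. With line 1 turned, PIR3 ranged from −0.25 in line 7 to 2.31 and ARK1 from −0.24 in line 7 to 2.16. SPG4 was above 0 in 6 of the 7 lines, or 5 with line 1 turned, up to 1.83 in line 2.

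ARO10, phenylpyruvate decarboxylase, had 0.91, 1.25 and 1.70 in the evolved clone and 0.92, 0.69 and 0.98 in the ancestor. It met the rule for a new row by a difference of 0.42 with an adjusted p of 0.0123 in limma, but the groups overlapped and its mean in the direct arrays was −0.38. Row 485, the highest of all, had 1.99, 1.94 and 2.07, with an ancestral mean of 0.91. Just inside the limit were row 5918 at 1.00, retained, and row 1444 at 1.01, new. Just outside were YLR311C, an open reading frame with no symbol in the annotation used, at 0.999, and row 940 at 0.98.

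The evolved clone was always in the same dye, so a dye effect particular to a gene would stay in its ratio. With the direct arrays of the evolved clone over its ancestor, the 3 comparisons of line 4 closed a triangle. Taking the change between the diploid comparisons from the direct ratio would leave 0 without such an effect and without other error, and it passed the adjusted p in 23.4% of 6134 rows. A dye-balanced value was computed as 2 times evolved 4 over diploid, minus the direct ratio, minus ancestral 4 over diploid. It called 232 rows, or 3.78%. Because it combines 3 comparisons, its standard error is larger than that of evolved 4 over diploid alone. A row can therefore also fail the adjusted p through lower precision. Of the 75 called rows that could be tested, 41 were also called the same way, 29 higher and 12 lower, and these held 29 of the 47 new and 10 of the 22 retained rows.

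Ribosomal proteins changed little under this contrast. Their median was −0.62 and all 63 stayed below 0, with 37 lower past the adjusted p against 9.39% of all rows. The gap in the triangle was centred for them, at −0.01. The ribosome biogenesis list went from −0.60 to −0.10, with 1 member higher and 1 lower, beside 12.7% and 9.39% of all rows. Its gap was below 0 in 19 of 19 rows, with a median of −0.44. The stress list went from 0.72 to 0.36, and its gap was above 0 in all 16, with a median of 0.41. Chaperones went from 0.44 to 0.19, with 2 of 14 higher, near the 12.7% of all rows.

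Single genes followed the same split. HSP12 fell from 1.16 to 0.31 and DDR2 from 1.01 to −0.06, neither past the adjusted p. PUT1, at 1.94, and PIR3, at 1.45, kept their calls, as did PHM7 at 1.09 and ARO10 at 2.08. ARK1, at 1.24 with an adjusted p of 0.0535 in limma, did not, and SPG4 was at 0.86. ENA1, below 2-fold as measured at 0.75, reached 1.09. Among the lower genes PTR2 at −1.23, FUR1 at −1.09 and FIT2 at −1.47 kept their calls, whereas AAH1 at −0.82 and FCY2 at −0.50 no longer passed 2-fold. Wide gaps were seen in 3 of the 4 named acid phosphatases. PHO5, PHO11 and PHO12 lay at −0.13, 0.12 and 0.06 against the diploid as measured, but at 1.20, 1.29 and 1.27 with the dyes balanced. PHO3 differed from them, at −0.39 as measured and −0.31 with the dyes balanced. Whether the dye or another error set these gaps was not tested.

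**Figure D5:**
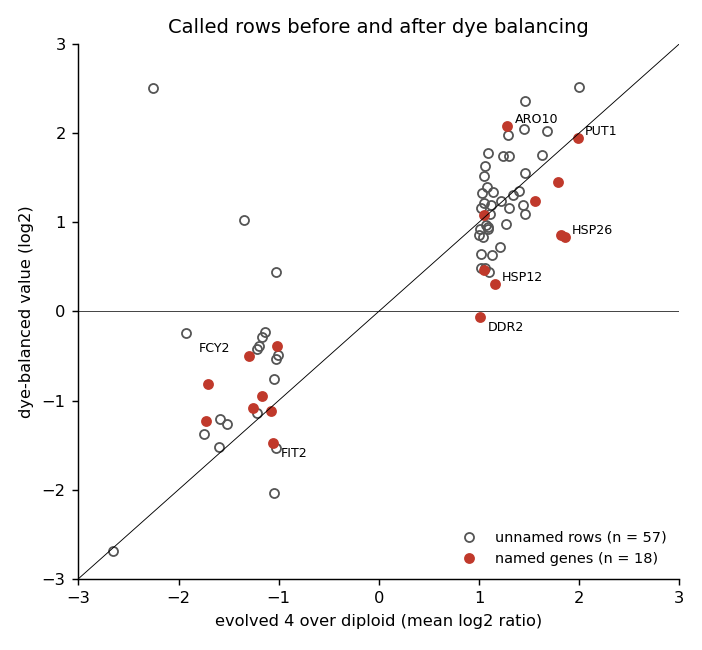
Mean log2 ratio of evolved 4 over diploid (horizontal) against the dye-balanced value (vertical) for the 75 called rows with values in all 3 comparisons of line 4. The line marks equal values, and the point at the upper left is row 4605, at −2.25 and 2.51.

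The named genes gave little on mating type. STE3, the receptor for a-factor and the only named gene of that list, lay at 0.05 in both comparisons with the diploid and did not pass the test. No proteasome subunit and no mitochondrially encoded gene was among the named rows, and the named oxidative phosphorylation gene was RIP1, the Rieske protein, at 0.28 against −0.82 in the ancestor.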

How the data were processed

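The authors hybridised total RNA of cultures grown at 36°C on spotted oligonucleotide arrays in 2 colours. The deposited values are log2 ratios, LOWESS-normalized by the authors, who had dropped dim spots. Over 30 arrays, 84 cells stood at a floor of −6.64 and were set to missing, 1 of them on the arrays of evolved 4 over diploid, which held 6210 to 6230 values each. The number of arrays limits the precision.

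One linear model held all 10 groups (lmFit and eBayes of limma 3.58.1, run in R 4.3.3). Rows needed 2 values in each group compared. Tests used Benjamini-Hochberg adjustment. Shares were compared by an exact permutation test in scipy 1.17.1. On simulated data for evolved 4 over diploid with 6225 rows, 99.5% of 200 rows changed by 1.5 were called, with 0 false calls. At a change of 0.5, 88.5% passed the adjusted p, with 9 false. The simulated noise was independent between arrays and held no dye effect, so these counts do not cover errors of that kind.

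Names came from the study's supplementary gene lists, used only as a key. A row was named where the mean of the 3 direct arrays matched 1 entry within 5e-05 after a common offset, and 3 matches out of order were rejected. This tolerance and the matching itself were chosen after the data were seen. Members, gene lists and tests were chosen with earlier results of these data known. The rows described were the 6 highest and 6 lowest calls, the 4 highest and 4 lowest retained and new rows, the row called in opposite directions and the 2 rows each side of the 2-fold limit in each direction. One called gene is not reported here. Other genes were picked from the named rows after their values were seen. Alternatives were other scalings and filters, floor cells kept, line 4 alone, a replicate block, a robust prior, other fold minimums, a running median, the methods' t-test and left-out arrays.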

Additional observations from a re-analysis of the deposited data

Results flagged for a closer look

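In 11 called rows described here the means of the evolved clone and the ancestor lay on opposite sides of the diploid and the difference between them was itself past the adjusted p in limma and at least 2-fold. Those that ended higher were PHM7, with a difference of 1.97, DDR2 with 1.48, HSP12 with 1.40, GPH1 with 1.30 and the unnamed rows 5794 with 2.60, 3481 with 1.23 and 6301 with 1.12. Those that ended lower were FUR1 with −1.73, FIT2 with −1.13 and the unnamed rows 2029 with −1.24 and 348 with −1.12. With the dyes balanced, DDR2 was at −0.06, GPH1 at 0.46 and HSP12 at 0.31 against the diploid.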

How the results depend on the processing

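With 1 array of evolved 4 over diploid left out, 81 to 87 rows were called, and 73, 68 and 68 of the 80 were among them. With an ancestral array left out the 80 remained. Over these 6 settings new rows ranged from 40 to 52, with 38 to 45 of the 47 among them, and retained rows from 16 to 27. Quantile normalization called 68, all of them among the 80, but cut the ancestral calls from 209 to 50, the calls of the difference from 426 to 210 and the retained rows from 22 to 7, and turned the difference in the share of values beyond 2-fold from −2.80 to 0.00915 percentage points, since it gives all arrays 1 distribution. At a 1.5-fold minimum the counts were 687 for evolved 4 over diploid, 1112 for the ancestor, 1516 for the difference, 426 for new rows, 141 for retained rows and 968 dye-balanced, and the difference in shares was −8.52. With no fold minimum they were 3209, 4016, 3513, 751, 1255 and 1354. The methods' t-test at its own thresholds gave 41 and 58 calls in the diploid comparisons, and 0 in both after Benjamini-Hochberg adjustment, with 3 arrays each. New rows numbered 41 when the direct arrays also had to pass, a choice made after the data were seen. Among 26 described rows, none reversed under the settings run, and 6 lost their call in at least 1. The list medians kept their sign under all settings run, and matching names within 0.0001 left 55 of 63 ribosomal proteins, with a median of −0.69. The labels give the groups shared replicate numbers, but same-numbered arrays correlated above 0.1 in only 2 of 9 pairs, and they were not treated as paired. Both were pairs of evolved 4 over diploid with the direct arrays, at 0.177 and 0.349. Pairs with other numbers ranged from −0.354 to 0.25, so a link between these 2 groups is not settled. With the replicate block there were 80 calls, 209 in the ancestor and 425 in the difference.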
